A study of Saccharomyces cerevisiae with 18 samples.

Results

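Yeast cultures given the *E. arvense* extract that ranked highest in inositol, USA2, were compared with cultures given the extract that ranked lowest, EUROPE11. The comparison rests on 4 of the 18 arrays of the series, 2 for each extract, chosen by their sample labels. Dry extract at 2.5 mg/mL was given for 20 min to log-phase cultures of *S. cerevisiae* strain BY4743. It is a diploid that lacks HIS3, LEU2 and URA3 on both homologues and is heterozygous for deletions of MET15 and LYS2, and it grew in minimal medium with added uracil. Both extracts were commercial water extracts from which the excipient had been removed with aqueous methanol. They came from different regions and started with different excipients, so inositol cannot be told apart here from anything else in which they differ. The other arrays are 4 of vehicle-treated controls, 4 of CHINA8 and 2 each of USA6, USA7 and INDIA13, in the same strain and with each extract at the same dose and time. The growth protocol states biological duplicates, each grown from 1 colony. All 4 arrays compared carry the same title date, the later of 2 in the series, and control and CHINA8 arrays are divided between the 2 dates. Values are RMA log2 signals, so a difference of 1 is a 2-fold change, and differences are USA2 minus EUROPE11 unless stated otherwise.

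Inositol is the head group of phosphatidylinositol, and yeast makes it from glucose 6-phosphate with the synthase encoded by INO1 or takes it up through the transporters Itr1 and Itr2. INO1 and many genes of phospholipid synthesis are activated by the Ino2-Ino4 pair and repressed through Opi1 when inositol is plentiful. Yeast also exports many foreign compounds, and the zinc cluster factors Pdr1, Pdr3 and Yrr1 control the pumps of this multidrug response.

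Cultures with the 2 extracts differed in few genes at the spread of the whole series. In a limma model of 7 conditions over 18 arrays, 10 of 5763 probe sets (0.174%) passed a Benjamini-Hochberg adjusted p of 0.05, 5 higher and 5 lower with USA2, and 3 of them changed over 2-fold, all higher. At an unadjusted p under 0.05 the count was 1028 (17.8%), with 384 higher (6.66%) and 644 lower (11.2%). The 2 arrays of one extract lay on the same side of both arrays of the other in 3777 probe sets (65.5%). In the same model fitted to the 14 arrays of the later title date, which hold all 4 arrays compared, 350 probe sets (6.07%) were called, 124 higher (2.15%) and 226 lower (3.92%), with all 10 calls of the larger model among them. The median residual SD was 0.15 over 18 arrays and 0.117 over 14. The larger model has no term for title date, so differences between the dates within control and CHINA8 enter its spread. With title date added to it as a block, 32 probe sets were called. The cause of the gap between the counts was not tested. Leaving out any 1 of the 4 arrays left a single call, AZR1. Among the 15 pairs of extracts, USA2 with EUROPE11 and USA2 with USA7 had the fewest calls in the larger model, 10 each, and the other pairs had 23 to 2088. In the 14 arrays, 5 pairs had fewer calls than USA2 with EUROPE11. Over all probe sets, differences had an SD of 0.185 between the USA2 arrays, 0.161 between the EUROPE11 arrays and 0.266 to 0.323 between arrays of the 2 extracts. The deleted genes URA3 and LEU2 lay in the lowest 3% of probe sets on these arrays, at mean percentiles of 1.21 and 2.35. HIS3 lay at 83.0, and since its allele in this strain removes only part of the gene, that signal checks nothing. Of 15 genes of haploid and mating cells, which a diploid keeps low, 14 lay below the 25th percentile, RME1 lay at 50.5, and 0 were called in either model.

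The difference between the extracts moved with coding length. Across 5498 probe sets with a length, which are not independent replicates, Spearman's rho between length and difference was -0.52. It was -0.45 to -0.52 in each of the 4 pairs of a USA2 with a EUROPE11 array, 0.17 between the USA2 arrays and 0.05 between the EUROPE11 arrays. Against other extracts it ran from -0.48 (CHINA8) to 0.19 (USA7) for USA2 and from -0.11 (CHINA8) to 0.49 (USA7) for EUROPE11. In 5 length classes of similar size, the median difference fell from 0.18 in the class up to 657 bases, over 0.08, -0.01 and -0.09, to -0.18 in the class from 2103 bases. Calls in the 14 arrays divided in the same way, with 61 higher and 5 lower in the shortest class and 3 higher and 93 lower in the longest. Their median length was 648 bases for those higher and 1929 for those lower with USA2, against 1215 for genes not called. The 3′ minus 5′ difference of the ACT1 control probe sets, a measure of RNA integrity and labelling, was 0.32 and 0.32 with USA2 and 0.33 and 0.28 with EUROPE11, and that of 18S rRNA was -2.54 and -2.83 against -2.46 and -2.48. After a lowess trend with length was removed from each array, a choice made after seeing the data, 5 of 5498 probe sets (0.0909%) were called over 18 arrays, all higher with USA2. Over 14 arrays 63 (1.15%) were then called, 28 higher (0.509%) and 35 lower (0.637%), and 60 of them were also called without the correction. The cause of this trend was not tested, and the groups that moved are given with and without it.

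**Figure D1:**
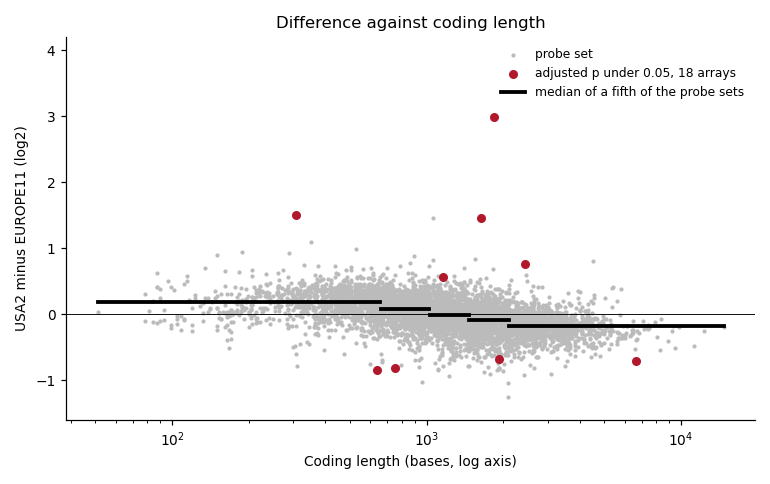
Log2 difference USA2 minus EUROPE11 of each probe set against coding length in bases on a log axis. Grey points are 5498 probe sets, red points those called over 18 arrays, and black lines the median of each of 5 length classes, which fall from 0.18 to -0.18 with length.

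Several genes of multidrug export and resistance were higher with USA2, led by AZR1 (YGR224W), which encodes a plasma membrane transporter needed for resistance to azoles and weak acids. AZR1 stood at 6.81 and 6.57 with USA2 and at 3.82 and 3.59 with EUROPE11. The EUROPE11 values lay within the control range of 3.40 to 3.89, and both USA2 values lay above it. On the 2 EUROPE11 arrays the deleted gene LEU2 read 3.73 and 3.57. AZR1 was thus at the level of a gene that is absent there, and its true difference may be larger than the measured one. AZR1 measured 7.92-fold higher with USA2, a difference of 2.99 ± 0.23 (SE) with a limma adjusted p of 1.69e-05. This difference stayed between 2.86 and 3.11 with any 1 of the 4 arrays left out. SNG1 (YGR197C), a membrane protein that gives resistance to nitrosoguanidine, stood at 11.64 and 11.68 with USA2 against 10.25 and 10.14, a difference of 1.46 ± 0.22 (limma adjusted p = 0.0147). CIS1 (YLR346C), named for sensitivity to citrinin when it is deleted, stood at 8.55 and 8.63 against 7.11 and 7.06, 2.83-fold higher (limma adjusted p = 0.0367). In all 3 genes the arrays of the 2 extracts were separate by over 1 log2 unit. YRR1 (YOR162C) itself stood at 8.55 and 8.64 with USA2 and 7.89 and 7.78 with EUROPE11, a smaller difference of 0.76 ± 0.11 (limma adjusted p = 0.0147).

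Of the 38 probe sets of drug transport and pleiotropic resistance, 3 were called higher (AZR1, SNG1 and YRR1) and 0 lower over 18 arrays, beside 5 higher calls in all (0.0868%). Over the 14 arrays 7 were higher and 0 lower, beside 2.15% higher and 3.92% lower of all probe sets. The further 4 were chosen for naming after their values were seen. RSB1, whose product moves sphingoid bases across the plasma membrane, stood at 8.85 and 8.33 with USA2 against 7.07 and 7.18 (difference 1.47 ± 0.29, limma adjusted p = 0.0785 over 18 arrays and 0.0214 over 14). SNQ2, an ABC transporter of the plasma membrane and a target of Yrr1, stood at 12.51 and 12.43 against 11.68 and 11.63 (0.81 ± 0.17, limma adjusted p = 0.0841 and 0.0214). Both genes lay higher on each USA2 array than on each EUROPE11 array. YHK8, a presumed drug antiporter, stood at 7.24 and 7.33 against 6.43 and 6.48 (0.84 ± 0.30, limma adjusted p = 0.176 and 0.0183). PDR16, a phosphatidylinositol transfer protein, was the remaining one at 0.45. The median of all 38 was 0.04, against -0.01 over all probe sets, and 13 of the 38 lay lower on both USA2 arrays against 16 that lay higher, beside 34.3% and 31.2% of all probe sets. PDR5, the main pump of the Pdr1 and Pdr3 network, differed by 0.29 (95% interval -0.02 to 0.61), YOR1 by 0.20 (-0.25 to 0.65) and FLR1 by -0.08 (-0.37 to 0.20), and none of these passed the test in either model. PDR1 itself was at -0.28 and was not called. Both probe sets of TPO2, a polyamine exporter, went the other way, at -0.61 and -0.51, and were not called.

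The lowess correction raised the differences of AZR1, SNG1, SNQ2, YRR1 and YHK8 and lowered that of CIS1, a short gene of 306 bases. With the length trend removed, the 5 calls over 18 arrays were AZR1 (3.11), SNG1 (1.56), CIS1 (1.34), SNQ2 (1.03, limma adjusted p = 0.00741) and YRR1 (0.92, limma adjusted p = 0.000503). Over 14 arrays the correction left 6 of the 38 higher and 0 lower, beside 0.509% and 0.637% of all probe sets, and the list median became 0.16.

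**Figure D2:**
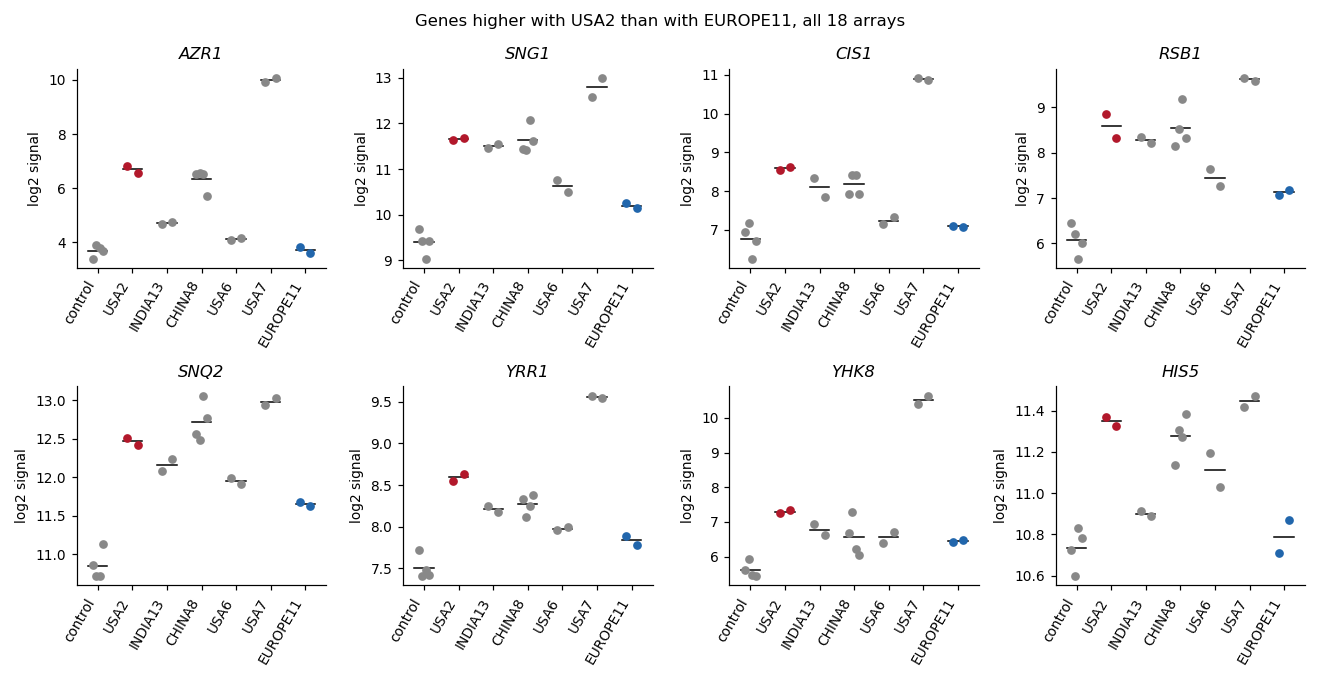
Log2 signal of 8 genes on all 18 arrays, with points for arrays and lines for the mean of a condition. Extracts stand in falling order of their inositol rank after the control, with USA2 red and EUROPE11 blue. In each panel both USA2 points lie above both EUROPE11 points, and USA7 has the highest mean.

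How far 7 of these genes of export and resistance set either extract apart from the others depended on USA7. Its means were the highest of all extracts in AZR1 (10.01), CIS1 (10.90), YHK8 (10.53), SNG1, RSB1, SNQ2 and YRR1. In PDR5 the CHINA8 arrays, at 12.46 to 12.80, lay above those of USA7, at 12.35 and 12.42. Against the mean of USA6, USA7, CHINA8 and INDIA13, 6 probe sets (0.104%) were called for USA2, 3 higher (0.0521%) and 3 lower (0.0521%), and 32 (0.555%) for EUROPE11, 10 higher and 22 lower (0.382%). The 2 comparisons share the arrays of these 4 extracts. For EUROPE11, AZR1 stood at -2.59, SNG1 at -1.45, CIS1 at -1.51, RSB1 at -1.35, SNQ2 at -0.80, YHK8 at -1.15 and YRR1 at -0.67, all called, and for USA2 the 7 values lay between -0.32 and 0.40 with 0 called. With USA7 left out of the mean, a choice made after seeing the data, 13 probe sets (0.226%) were called for USA2 and 17 (0.295%) for EUROPE11. AZR1 was then called for both, at 1.64 ± 0.18 with USA2 (limma adjusted p = 0.000686) and -1.35 ± 0.18 with EUROPE11 (limma adjusted p = 0.00309). SNG1 remained called for EUROPE11, at -1.06 ± 0.18 (limma adjusted p = 0.0148). The other 5 were called for neither, at -0.97 for RSB1, -0.75 for CIS1, -0.62 for SNQ2, -0.32 for YRR1 and -0.18 for YHK8 with EUROPE11, and between 0.19 and 0.75 with USA2. The mean of USA6 lay close above that of EUROPE11 in several genes, with 4.12 against 3.70 for AZR1, 7.24 against 7.09 for CIS1, 7.98 against 7.83 for YRR1 and 6.56 against 6.45 for YHK8. The order of levels was not that of the inositol rank, since USA7 ranked next to EUROPE11 at the low end. EUROPE11 against control gave 0.02 for AZR1 and 0.32 for CIS1, neither called, and rises of 0.80 for SNG1, 1.05 for RSB1 and 0.80 for SNQ2. USA2 against control gave 1.82 for CIS1, 2.26 for SNG1, 2.51 for RSB1 and 1.62 for SNQ2, all called, and both comparisons use the same 4 control arrays.

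**Figure D3:**
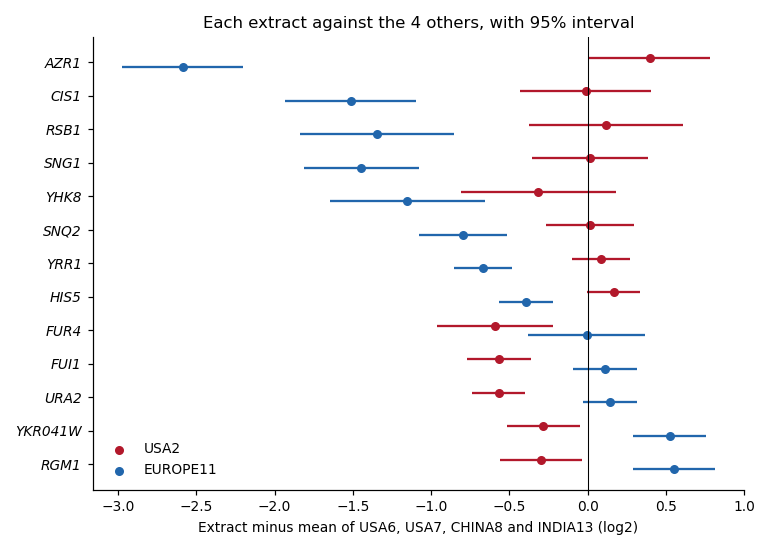
Log2 difference of USA2 (red) and EUROPE11 (blue) from the mean of the 4 other extracts for 13 genes, with the 95% interval of the model. The export genes at the top lie near 0 for USA2 and below 0 for EUROPE11 against a mean that holds the high USA7 values, and URA2, FUI1 and FUR4 lie below 0 for USA2 and near 0 for EUROPE11.

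HIS5 (YIL116W), the aminotransferase of histidine synthesis, was the fifth gene called higher, at 11.37 and 11.33 with USA2 against 10.71 and 10.87, a difference of 0.56 ± 0.10 (limma adjusted p = 0.0478). It was called for EUROPE11 against the other extracts (-0.39) and not for USA2 (0.17), and with USA7 left out of the others for neither. In the list of lysine, histidine, aromatic and other amino acids it was the only call of 48 over 18 arrays, beside 0.0868% higher of all probe sets. LYS5 joined it over 14 arrays, beside 2.15% higher of all probe sets.

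A pair of pyrimidine genes was among the 5 lower with USA2. URA2 (YJL130C), whose large protein carries out the first steps of pyrimidine synthesis, stood at 12.22 and 12.16 with USA2 against 12.88 and 12.92 with EUROPE11. The groups were separate, and the control arrays ranged from 12.19 to 12.45. Controls of the later title date, at 12.45 and 12.32, lay above both USA2 arrays and below both EUROPE11 arrays. The difference was -0.71 ± 0.10 (limma adjusted p = 0.0147). FUI1 (YBL042C), the uridine permease, stood at 10.39 and 10.46 against 11.09 and 11.11, a difference of -0.68 ± 0.12 (limma adjusted p = 0.0478). FUR4, the uracil permease, named after its values were seen, stood at 8.07 and 8.22 against 8.84 and 8.61 (-0.58 ± 0.22), with a limma adjusted p of 0.196 over 18 arrays and 0.0412 over 14. Of the 15 pyrimidine probe sets, 2 were called lower over 18 arrays and 3 over 14, and 0 higher in either, beside 5 lower calls (0.0868%) and 3.92% of all probe sets. The other 12 lay between -0.31 and 0.13, with URA1 at -0.07, URA4 at -0.05 and URA5 at 0.03, and the median of the list was 0.00.

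Against the 4 other extracts, URA2 was at -0.57 ± 0.08 (limma adjusted p = 0.0125) and FUI1 at -0.57 ± 0.10 (limma adjusted p = 0.0335) for USA2, and at 0.14 and 0.11, not called, for EUROPE11. FUR4 was at -0.59 for USA2, not called. With USA7 left out of the others URA2 stayed called for USA2, at -0.62 (limma adjusted p = 0.00321), and FUI1 did not, at -0.47 (limma adjusted p = 0.0665). Against control, URA2, FUI1 and FUR4 were at -0.16, 0.02 and 0.29 with USA2, none called, and rose by 0.55, 0.70 and 0.87 with EUROPE11. The coding sequence of URA2, at 6645 bases, is among the longest on the array. With the length trend removed its difference was -0.46 (limma adjusted p = 0.056 over 18 arrays and 0.0236 over 14) and that of FUI1 -0.55 (0.144 and 0.0328). FUR4 was then at -0.46 and was not called in either.

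**Figure D4:**
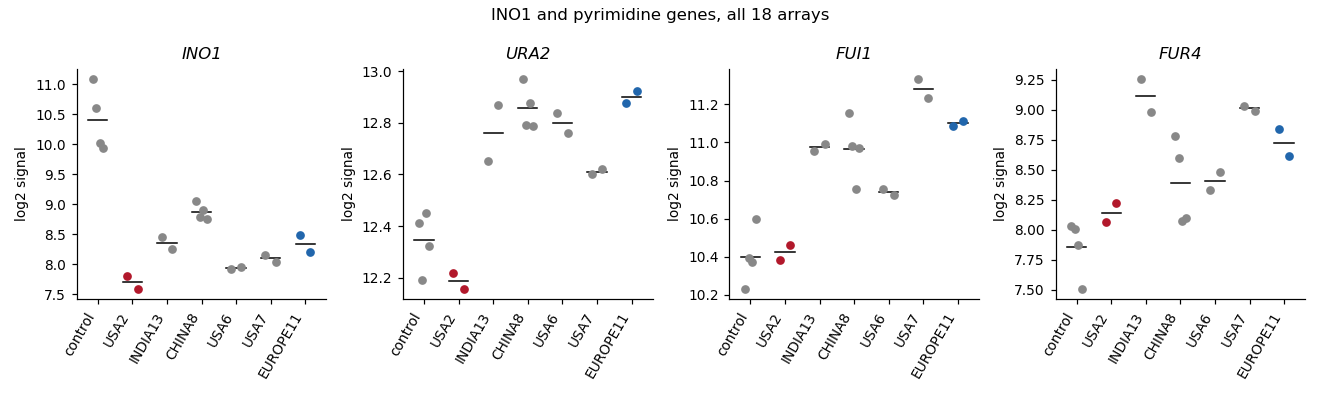
Log2 signal of INO1 and 3 pyrimidine genes on all 18 arrays, drawn as in the plot of the export genes. USA2 (red) lies below EUROPE11 (blue) in all 4 panels, and for INO1 every extract array lies below every control array.

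RGM1 (YMR182C), a putative zinc finger factor, was lower with USA2, at 5.55 and 5.52 against 6.45 and 6.32, a difference of -0.85 ± 0.16 (limma adjusted p = 0.0478). YKR041W, an open reading frame with no gene name, stood at 5.03 and 5.29 against 5.91 and 6.03, a difference of -0.81 ± 0.14 (limma adjusted p = 0.042). Both genes are short, at 636 and 753 bases, and their differences grew to -0.97 and -0.89 with the length trend removed, where each was called over 14 arrays but not over 18. The fifth lower call was a probe set with no gene name in the annotation, whose probes can bind several transcripts, at 12.47 and 12.38 against 13.18 and 13.21.

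Most inositol genes had small differences between the extracts of highest and lowest inositol. Of the 10 probe sets of inositol synthesis, uptake and regulation, 0 were called over 18 arrays (0 higher and 2 lower at an unadjusted p under 0.05, beside 6.66% and 11.2% of all probe sets), and over 14 arrays 1 was lower, INO1, and 0 higher (3.92% and 2.15% of all). INO1 (YJL153C) stood at 7.81 and 7.59 with USA2 and at 8.48 and 8.20 with EUROPE11, while the control arrays lay between 9.94 and 11.09. Controls of the earlier title date stood at 11.09 and 10.60 and those of the later at 10.02 and 9.94. All 4 extract arrays were below every control array, and the USA2 arrays were below those of EUROPE11. The difference between the extracts was -0.65 ± 0.27 over 18 arrays (95% interval -1.23 to -0.06, limma adjusted p = 0.239). Over 14 arrays its SE was 0.12 (limma adjusted p = 0.023). With the length trend removed the difference was -0.56 (limma adjusted p = 0.404 over 18 arrays and 0.0494 over 14). Against control the INO1 difference was -2.72 with USA2 and -2.07 with EUROPE11, both called. In order of level, the extracts were USA2 at 7.70, USA6 at 7.93, USA7 at 8.10, EUROPE11 at 8.34, INDIA13 at 8.36 and CHINA8 at 8.87. This order was not that of the inositol rank, since INDIA13 and CHINA8 ranked next below USA2 and had the highest means. The USA2 mean minus that of the 4 other extracts was -0.62 and the EUROPE11 value 0.03, and neither was called.

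ITR1, the main inositol transporter, stood at 11.94 and 11.98 with USA2 and 11.84 and 11.83 with EUROPE11, a difference of 0.13 (95% interval -0.19 to 0.44). Against control it was at -1.28 with USA2 and -1.41 with EUROPE11, both called. The regulators OPI1 and INO4 differed by -0.09 (-0.34 to 0.15) and 0.09 (-0.20 to 0.38), and each was called lower than control with both extracts, at -1.21 to -0.97. INO2 stood at 6.34 and 6.72 against 7.03 and 6.89, a difference of -0.43 (-0.78 to -0.08, limma adjusted p = 0.193 over 18 arrays and 0.0766 over 14). The other 5 members, ITR2, the monophosphatases INM1 and INM2, SCS2 and the glycerophosphoinositol permease GIT1, lay between -0.15 and 0.15. Against control, 5 of the 10 were lower and 0 higher with USA2, and 4 lower and 1 higher with EUROPE11, beside 10.5% higher and 8.36% lower of all probe sets with USA2 (18.9% in all) and 12.3% higher and 9.89% lower with EUROPE11 (22.2% in all). Both use the same 4 control arrays. On the control arrays of the later date the 18S rRNA difference given above was -1.49 and -1.42, above all 4 arrays of USA2 and EUROPE11. On the CHINA8 arrays of that date it was -1.12 and -1.54, and on those of USA6, USA7 and INDIA13 -2.79 to -2.34. The earlier control arrays were at -2.67 and -2.85. The part of this measure in the comparison with control was not tested.

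In phospholipid synthesis the differences were within 1 log2 unit, as in all but 8 of the 5763 probe sets. Of its 26 probe sets, 0 were called between the extracts over 18 arrays, at an unadjusted p under 0.05 there were 1 higher and 6 lower, beside 6.66% and 11.2% of all probe sets. Over 14 arrays 0 were higher and 2 lower, beside 2.15% and 3.92%. These 2 were PAH1, the phosphatidate phosphatase, at 7.82 and 7.75 against 8.47 and 8.27 (-0.58 ± 0.14), and SCT1, a glycerol 3-phosphate acyltransferase, at 9.64 and 9.64 against 10.17 and 9.96 (-0.42 ± 0.18). Both have long coding sequences, and with the length trend removed neither was called (-0.42 and -0.27). OPI3, a methyltransferase of phosphatidylcholine synthesis, was the 1 then called over 14 arrays, at -0.49 (limma adjusted p = 0.0444), from 12.26 and 12.20 with USA2 against 12.70 and 12.48. Of all probe sets, 0.637% were then called lower. CHO1 and CDS1, which make phosphatidylserine and CDP-diacylglycerol, differed by 0.13 and 0.11, and each was called lower than control with both extracts, at -1.37 to -0.97. The choline transporter HNM1 stood at 11.50 and 11.53 against 11.25 and 11.21 (0.29, 95% interval -0.02 to 0.59) and the cardiolipin synthase CRD1 at 9.53 and 9.39 against 9.16 and 9.06 (0.35). CKI1, PSD2, URA8 and SLC1 lay between -0.42 and -0.28, and CHO2, PSD1, PCT1, GPT2, PGS1, ALE1, TAM41, ECT1, EKI1, URA7, DGK1, GEP4, CPT1, PIS1 and EPT1 between -0.20 and 0.17. Of the 36 members of both lists, the 95% interval of the difference lay within 1 log2 unit for 35, all except INO1, and within 0.5 for 21. Over all 5763 probe sets the interval lay within 1 log2 unit for 5443.

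**Figure D5:**
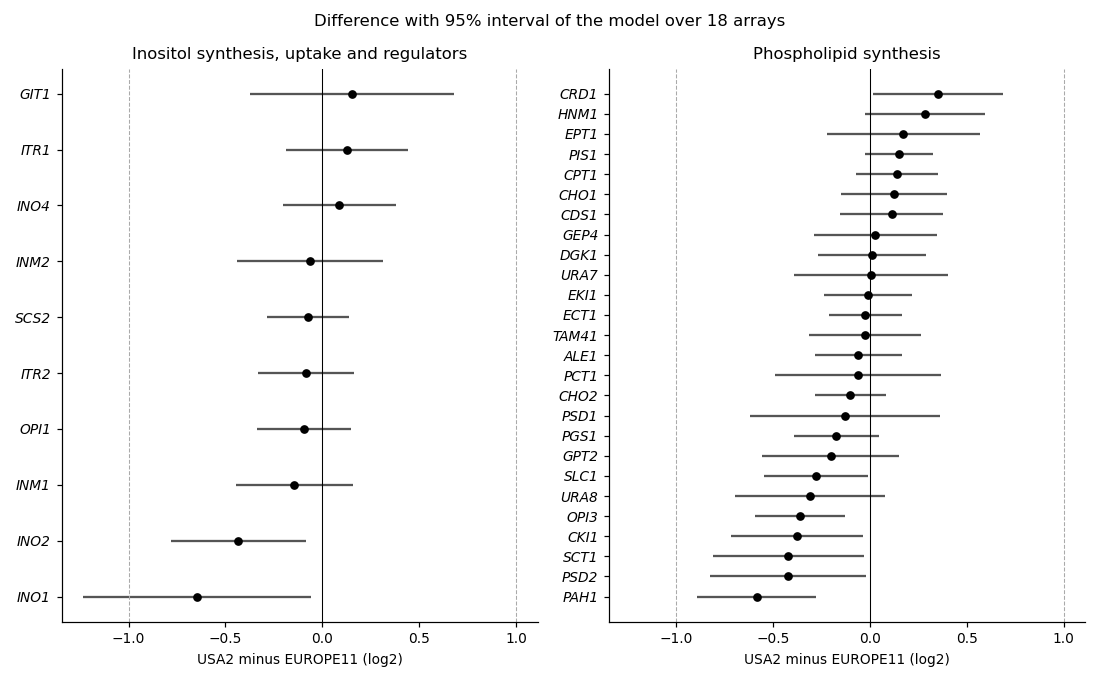
Log2 difference USA2 minus EUROPE11 with the 95% interval of the model over 18 arrays, for 10 probe sets of inositol and 26 of phospholipid synthesis. Dashed lines mark a 2-fold change, and only the interval of INO1 reaches past one.

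In the phosphoinositide kinases, phosphatases and inositol phosphate enzymes the list median moved with length. The median of their 18 probe sets was -0.27, with 12 lower and 1 higher on both USA2 arrays than on both EUROPE11 arrays, beside 34.3% and 31.2% of all probe sets. Their median coding length was 2619 bases, and with the length trend removed the median was -0.05. Over 14 arrays 1 member was called, lower, beside 3.92% of all probe sets. It was INP52, an inositol polyphosphate 5-phosphatase, at 7.05 and 6.89 against 7.82 and 7.54, and it was not called with the trend removed. Heat shock genes and chaperones (28 probe sets) had 0 higher and 4 lower calls over 14 arrays, SSA4, SSA1, STI1 and SSE1, beside 2.15% and 3.92% of all probe sets, and 0 in either direction with the trend removed. For the cell wall (43 probe sets) the counts over 14 arrays were also 0 and 4, and with the trend removed 2 were called lower, beside 0.637% of all probe sets, the mannoproteins DAN4 at -0.60 and HSP150 at -0.42.

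Some genes of amino acid synthesis were higher with USA2 over the 14 arrays, and some were lower. Of 12 probe sets of branched-chain amino acids, 0 were higher and 2 lower, beside 2.15% and 3.92% of all probe sets. In that list 0 were called over 18 arrays, and 0 over 14 with the length trend removed. The arginine and ornithine list had a median of 0.32 over 12 probe sets and 0.36 with the trend removed. Over 14 arrays 4 were higher, ORT1, ARG7, ARG8 and ARG1, and 1 lower, beside 2.15% and 3.92% of all probe sets. The lower one was CAR2, of the arginine breakdown pathway. Over 18 arrays 0 were called, with 6 higher and 1 lower at an unadjusted p under 0.05, beside 6.66% and 11.2%. ORT1, the ornithine carrier of mitochondria, stood at 10.30 and 10.44 against 9.71 and 9.79 (0.62 ± 0.14, limma adjusted p = 0.0246 over 14 arrays and 0.0999 over 18). ARG7, the ornithine acetyltransferase, stood at 12.10 and 12.15 against 11.61 and 11.74 (0.45 ± 0.11). With the trend removed ARG7 remained the only call of the list, beside 0.509% higher and 0.637% lower of all probe sets. In sulfate assimilation and methionine synthesis, 6 of 37 probe sets were higher and 1 lower over 14 arrays, beside 2.15% and 3.92% of all probe sets. Over 18 arrays 0 were called, with 8 higher and 3 lower at an unadjusted p under 0.05, beside 6.66% and 11.2%. MET16, which reduces PAPS to sulfite, stood at 9.44 and 9.59 against 8.77 and 8.80 (0.73 ± 0.19, limma adjusted p = 0.00609 over 14 arrays and 0.115 over 18), and MET22, a phosphatase of the same pathway, at 11.80 and 11.86 against 11.43 and 11.38 (0.42 ± 0.10). These 2 stayed called with the trend removed, while MET28, MET31, MET14 and STR3, and SAM2 among the lower, did not. MET16 with USA2 was close to control (0.03), and with EUROPE11 it was at -0.70, called lower.

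Over 18 arrays, calls fell only in the lists of drug transport, of pyrimidine and of lysine, histidine and aromatic amino acids, out of 42. Over 14 arrays the cyclin and cell cycle list had 0 higher and 4 lower of 34, CLN3 at -0.80, CLN1 at -0.44, RNR1 at -0.40 and MCM3 at -0.38, beside 2.15% and 3.92% of all probe sets, and 0 in either direction with the length trend removed. Thiamine and vitamin B6 had 2 higher (THI13, whose probes can bind related genes, and THI73) and 2 lower (THI7 and THI72) of 20, and with the trend removed 1 higher, beside 0.509% of all probe sets. The 148 probe sets of cytoplasmic ribosomal proteins had a median of 0.06 with 0 calls in either model, the 36 of the proteasome 0.03 with 0, and the 28 of hexose transport -0.07 with 0.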

How the data were processed

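Biotin-labelled RNA had been hybridized by the authors on Affymetrix Yeast Genome 2.0 arrays. RMA then corrected background, quantile-normalized the probes and summarized each probe set. The processing notes of the submitters list RMA and limma without a version. The table deposited by the authors gives log2 values for 5900 probe sets and 18 arrays, with array medians of 9.55 to 9.64. It was used unchanged. After quantile normalization a common shift of all genes cannot be seen. Depth does not apply to array signals, and precision is limited by how many arrays there are.

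Of these, 137 are Affymetrix controls and were left out, and the other 5763 entered every fit whatever their signal. The platform annotation gave 1 gene for 5498 probe sets and none for 265, with 12 names updated through the gene ID. RefSeq's table of assembly R64 gave the gene length, a multiple of 3 for 96.8% and therefore called coding length. No coordinates are given, since the build of the array design was not stated.

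Groups came from the sample labels. R 4.3.3 with limma 3.58.1 (lmFit, contrasts.fit, eBayes) fitted 7 conditions over 18 arrays, with Benjamini-Hochberg adjustment over all tested probe sets and a threshold of 0.05. The inositol rank of the extracts is the study's and was used in words only. The members, the 42 gene lists and the tests were chosen with earlier results of these data known. Named by rule were up to 14 of the largest called differences each way whose arrays do not overlap, members of the inositol and phospholipid lists, up to 4 called members of each other list and the deleted genes. Other genes were named after their values were seen. The length trend was removed from each array by lowess (span 0.3) on log2 length. Fits were tested on simulated data. Alternatives covered the arrays in the fit, title date and replicate number as blocks, normalization, filters, prior and adjustment.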

Additional observations from a re-analysis of the deposited data

Results flagged for a closer look

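The AZR1 value of 1 CHINA8 array stood far from the others of its group, at 5.72 against 6.51 to 6.55 on the other 3. This array lies outside the comparison of USA2 with EUROPE11 but enters its pooled spread. It is of the later title date, and the other CHINA8 array of that date stood at 6.54. The 10 called probe sets and INO1 were examined in control and CHINA8, which gave 22 groups of 4 arrays. AZR1 in CHINA8 was the only 1 past the limit set for Dixon's ratio, at 0.946. Chance takes about 1 group in 20 past that limit.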

How the results depend on the processing

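The count of 10 calls became 9 with equal array medians and 9 with a trended, robust prior. All 10 were called, among more, with the 4 arrays alone, the later title date, the date block and the extract arrays. The count became 645 with the 4 arrays alone, 350 with the later title date only, 32 with title date as a block, 16 with the extract arrays only, 6 without shared probe sets, 5 after cyclic loess, 3 with Bonferroni and 2 without the 1441 dimmest probe sets, among which were AZR1, CIS1, YRR1, YKR041W and RGM1. Removal of the length trend gave 5 calls and, over 14 arrays, 63. With 1 of the 4 arrays left out the count was 1 in each case, AZR1. The 3 calls over 2-fold became 8 with the 4 arrays alone, 6 with the later date, 6 with the length trend removed over 14 arrays, 1 without dim probe sets, 1 with Bonferroni and 1 with any of the 4 arrays left out. The replicate number as a block gave 421 calls, 6 of them over 2-fold. Deviations of arrays with the same number correlated at 0.307 between USA2 and EUROPE11, with only 2 pairs, so the numbers are not taken to pair the cultures.

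Against control, the 1089 calls of USA2 became 2009 with the later date, 2026 with the date block, 2242 with the replicate block, 1926 with the length trend removed over 14 arrays, 80 with Bonferroni, and 151 to 897 with 1 array left out. The 1277 of EUROPE11 became 2115, 2075, 2271, 2112, 84, and 333 to 1145. Against the 4 other extracts, the 6 calls of USA2 became 11 and the 32 of EUROPE11 became 266 with the later date, and the latter 110 with the date block. With USA7 left out of those extracts, a setting added after seeing the data, the counts were 13 and 17. The number of extract pairs with fewer calls rose from 0 to 5 with the later date. The cause of these changes was not tested. Of 108 named probe sets, 15 changed sign in at least 1 setting, OPI1, ITR2, INO4 and CHO2 among them. Their differences were at most 0.13, and 0 of the 15 were called over 18 or 14 arrays. At 4 arrays the number of arrays, and for AZR1 with EUROPE11 the low signal, limit the precision. The median of all probe sets moved by under 0.1 in every setting run.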

Other observations

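Further genes called over the 14 arrays both with and without the length trend were chosen after their values were seen, and none of them was called over 18 arrays. MRPL4, a protein of the mitochondrial ribosome, stood at 8.36 and 8.44 with USA2 and 9.49 and 9.35 with EUROPE11, a difference of -1.02 ± 0.28 (limma adjusted p = 0.00687 over 14 arrays). The control arrays stood at 9.43 and 9.08 on the earlier title date and at 8.75 and 8.57 on the later, that of both extracts. Those of the later date lay above both USA2 arrays and below both EUROPE11 arrays. Its list of 70 probe sets of mitochondrial ribosomal proteins had a median of 0.06. TIM23, a channel of mitochondrial protein import, stood at 9.91 and 9.96 against 10.61 and 10.64. On the USA7 arrays MRPL4 stood at 8.23 and 8.58 and TIM23 at 9.51 and 9.94, also below both EUROPE11 arrays.

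A pair of genes of actin patches was lower with USA2, ABP1 at 9.58 and 9.71 against 10.56 and 10.55 and RVS167 at 10.80 and 10.79 against 11.58 and 11.57. STP22, of the vacuolar sorting complex ESCRT-I, stood at 8.23 and 8.36 against 9.09 and 9.07, and CTF19, of the kinetochore, at 5.61 and 5.36 against 6.41 and 6.22. ERG6, a methyltransferase of ergosterol synthesis, stood at 11.95 and 12.01 against 12.62 and 12.58, in a list of 26 with a median of -0.03. On the USA7 arrays ABP1 stood at 9.42 and 9.62, RVS167 at 10.42 and 10.71 and STP22 at 8.14 and 8.33. CTF19 stood there at 5.82 and 5.54 and ERG6 at 11.69 and 11.86. All of these USA7 values lay below both EUROPE11 arrays, though USA7 ranked next to EUROPE11 in inositol. Among genes higher with USA2, ADH5, an alcohol dehydrogenase, stood at 11.66 and 11.58 against 10.63 and 10.96, and the sporulation genes SPO21 and SSP1 differed by 0.68 and 0.56 from low levels.

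ZAP1, the activator of zinc uptake genes, stood at 8.91 and 9.07 with USA2 against 9.81 and 9.81 with EUROPE11 (-0.82 ± 0.19, limma adjusted p = 0.0324 over 14 arrays and 0.0999 over 18), and it was not called with the length trend removed. EUROPE11 lay 1.15 above the mean of the 4 other extracts, among which USA6 stood at 6.73 and the others at 8.84 to 9.54. The control arrays stood at 9.73 and 10.02 on the earlier title date and at 9.79 and 10.19 on the later. PRM7, a gene regulated by pheromone, has 2 probe sets that differed by -1.25 and -1.05. The first was called over 14 arrays and neither with the length trend removed, and its CHINA8 mean was 8.90 against 5.54 and 5.61 on the USA2 arrays. In that probe set the EUROPE11 arrays stood at 6.63 and 7.02. Its control arrays stood at 5.29 and 5.25 on the earlier title date and at 6.60 and 6.90 on the later.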
